A study of Mus musculus with 14 samples.

Results

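Ileal LGR5 stem cells of the mouse small intestine were compared with jejunal LGR5 stem cells across all genes. The libraries were chosen by their titles, which gave 4 of the 14 RNA sequencing libraries of the series: 2 of ileal and 2 of jejunal LGR5 cells. The ileal cells came from tissue 5 to 8 cm from the cecum and the jejunal cells from tissue 5 to 8 cm from the pylorus, in C57Bl6 mice whose age is given as 6 to 12 weeks and whose sex is given as male, with no treatment or altered allele named in the labels. By the series' design the sorted cells went straight into lysis buffer, although the labels also carry a protocol for culture in Matrigel. The other 10 libraries are crypt cells (3 ileal, 3 jejunal) and CD166 cells (2 ileal, 2 jejunal), sorted for CD166 and CD44 and for low CD24. How LGR5 was detected in the sort, and how many mice gave a library, is not given in the sources used here. The p-values therefore measure the spread between these libraries, which may be technical.

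LGR5 is a receptor for R-spondins, ligands that strengthen Wnt signalling, and it marks the crypt base columnar cells. These dividing stem cells lie between Paneth cells at the crypt base and renew the absorptive and secretory cells of the epithelium. The jejunum takes up most dietary fat and sugar, while the ileum recovers bile acids and vitamin B12. In the mouse the transcription factor GATA4 maintains jejunal gene expression, and homeobox (Hox) genes are known for marking position along the body axis.

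The ileal libraries held total expected counts of 10610053 and 8723351 and the jejunal libraries 7904393 and 11206020. Levels are given as CPM, each count scaled to a common library total, so they compare a gene between libraries but not genes of different length. Lgr5 (ENSMUSG00000020140) stood at 355 and 133 CPM in the ileal and at 213 and 197 CPM in the jejunal libraries, and Olfm4, an abundant stem cell gene, was the top gene of 3 of the 4 libraries. Summed over 25 crypt base columnar markers the level was 29127 and 15203 CPM in ileum LGR5 1 and 2, against 28468 and 24686 CPM in jejunum LGR5 1 and 2. Ileum LGR5 2 stood apart: its 14 tested goblet cell markers and the 1 below the filter summed to 26867 CPM, against 8966 CPM in ileum LGR5 1 and 3665 and 2086 CPM in the jejunal libraries. Tuft cell markers summed to 296 and 969 CPM in ileum, against 274 and 252 CPM in jejunum, and enteroendocrine markers to 684 and 1416 CPM, against 492 and 532 CPM. Myeloid markers summed to 66.6 and 79.9 CPM in ileum, against 38.7 and 44.5 CPM in jejunum. Lymphocyte markers summed to at most 42.7 CPM and stromal and endothelial markers to at most 20.5 CPM in any of the 4 libraries. Enteric nerve and glia markers summed to at most 11.2 CPM and red blood cell markers to at most 5.7 CPM. In the stromal and red blood cell lists edgeR, DESeq2 and limma-voom called 0 of the 4 and 0 of the 1 tested, and 0 had p under 0.05 before adjustment. Of the 2 tested enteric nerve and glia markers edgeR called Ret higher in ileum (50%), against 6.58% of all tested genes. DESeq2 and limma-voom also called 1 higher. In bulk RNA, fewer cells of a type and less RNA per cell cannot be told apart. Xist, the transcript of the inactive X chromosome, was read at 388 and 543 CPM in ileum and 1108 and 1443 CPM in jejunum, while the Y-linked gene Kdm5d was read at 18.4 and 14.3 CPM, against 13.3 and 19.4 CPM. Transcripts of both sexes were thus present in each library, although the labels give male mice. Xist was called lower in ileum (log2 -1.45 ± 0.23, adjusted p = 0.00593). Its level thus moved with region while that of Kdm5d overlapped. The Y-linked genes Ddx3y, Eif2s3y and Uty were not called in the main fit either. The call of Eif2s3y depended on which library was left out. Whether the mix of sexes differed between the regions, and its part in the differences below, was not tested. Outside the LGR5 cells, the library labelled ileum crypt 3 had 234 CPM of Gata4 and 25.9 CPM of Fabp6, near the 229 and 25.0 CPM of jejunum crypt 1.

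**Figure D1:**
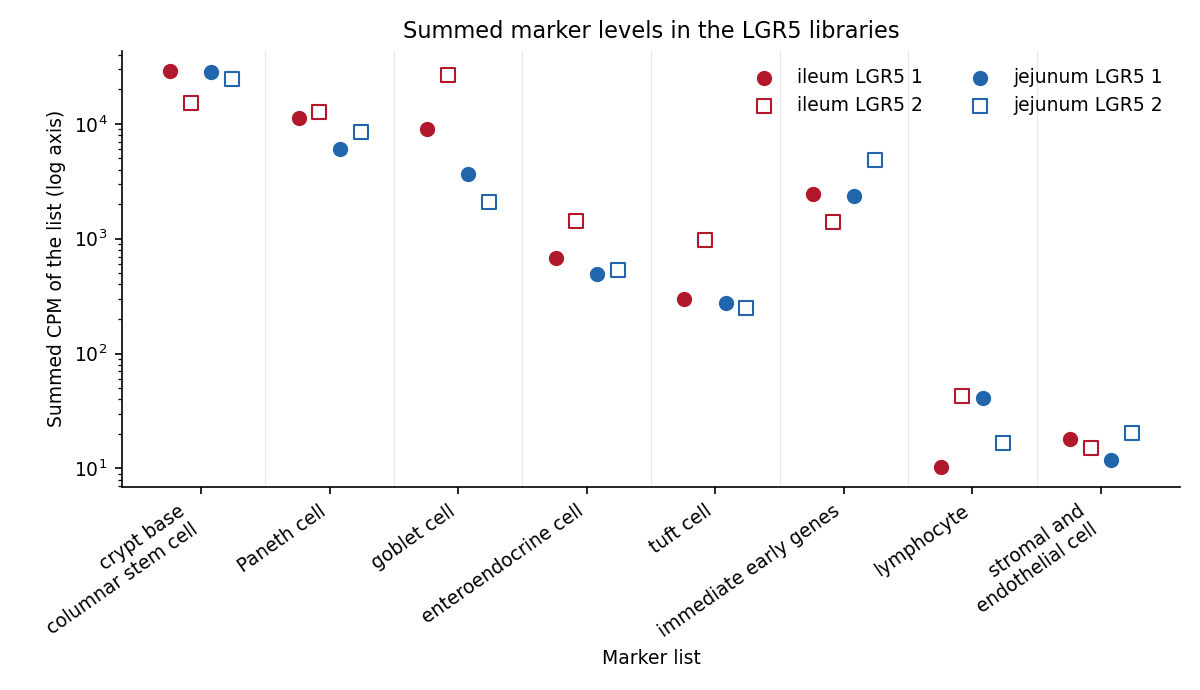
Summed CPM (log axis) of 8 marker lists in the 4 LGR5 libraries, with ileum in red and jejunum in blue. Each point is a library. Ileum LGR5 2 is lowest for stem cell markers (15203) and highest for goblet (26867), enteroendocrine (1416) and tuft cell markers (969).

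The regions differed widely. Of 12882 genes with enough counts to test, 1574 (12.2%) were called at an adjusted p under 0.05 by edgeR's quasi-likelihood test: 847 (6.58%) higher and 727 (5.64%) lower in ileal LGR5 cells. The ratio was at least 2-fold for 528 of the higher and 333 of the lower genes, and at least 8-fold for 129 and 66. The median log2 difference over all tested genes was -0.01, and 48.9% of them were above 0. Calls occurred at low and high levels, with 13% of genes at a mean log2 CPM under 1 and 13% of those over 7. The ileal libraries differed from each other by a median of 0.241 on the log2 scale and the jejunal libraries by 0.179, against 0.303 to 0.361 for the pairs across regions. Without ileum LGR5 1 there were 3359 calls and without ileum LGR5 2 there were 2440, while without jejunum LGR5 1 there were 189 and without jejunum LGR5 2 there were 126. In each of these fits a region was left with 1 library, whose spread was taken from the pair of the other region. A core of 107 genes, 60 higher and 47 lower in ileum, was called in all 4 of those fits, and genes of that core are marked below as stable calls.

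**Figure D2:**
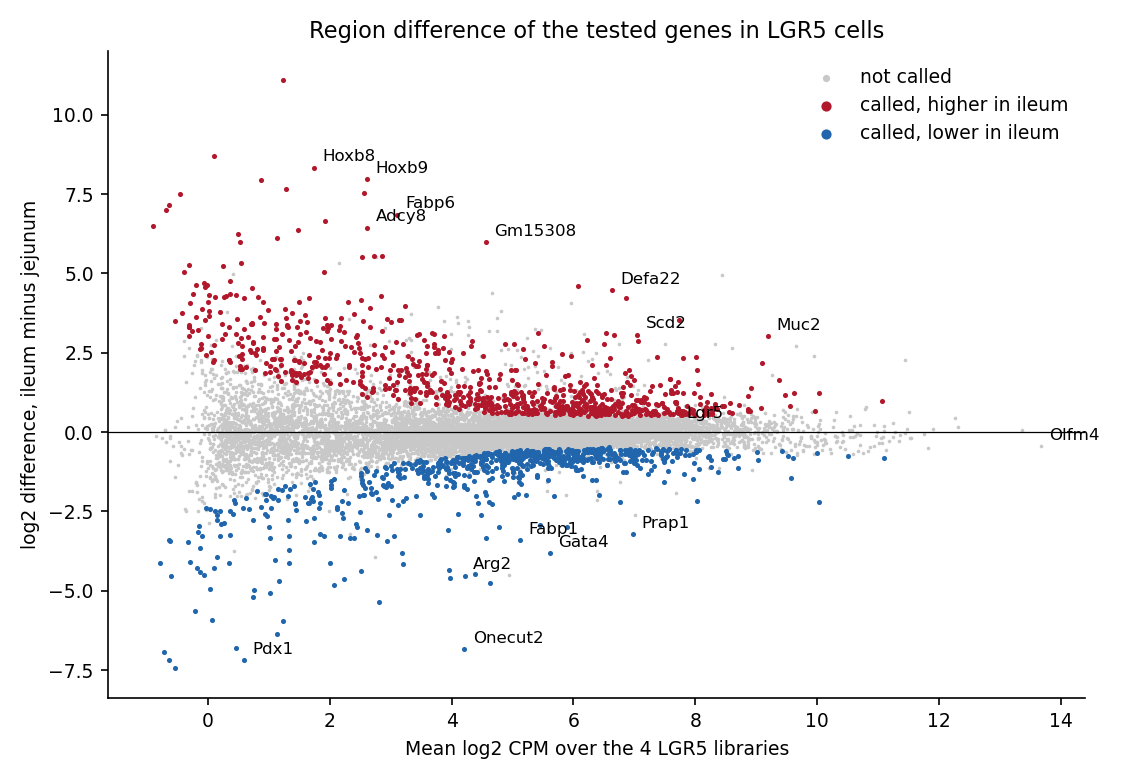
log2 difference between ileal and jejunal LGR5 cells against the mean log2 CPM of the 4 libraries. Each point is 1 of 12882 tested genes: red points are the 847 called higher in ileum and blue points the 727 called lower, with grey for the rest. Hoxb8, Hoxb9 and Fabp6 lie far above 0, Onecut2 and Pdx1 far below it, and Lgr5 and Olfm4 near it.

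Hox genes gave some of the largest differences, and the called ones lay mostly in the Hoxb cluster. Hoxb9 (ENSMUSG00000020875) was at 86.6 and 73.2 CPM in ileum and at 0.127 and 0.434 CPM in jejunum. It was 250-fold higher in ileum (log2 7.96 ± 0.32 SE, adjusted p = 1.0e-05). Hoxb8 (ENSMUSG00000056648) was at 48.1 and 26.5 CPM in ileum, against 0.127 and 0.0868 CPM in jejunum. Its log2 difference was 8.33 ± 0.54 (adjusted p = 0.000195). For both genes the regions did not overlap, and the jejunal libraries held under 1 CPM. Hoxb7 had 40.4 and 23.3 CPM in ileum, against 0.127 and 0.434 CPM in jejunum (log2 6.64 ± 0.50). Hoxb6 had 45.1 and 26.5 CPM, against 0.633 and 0.868 CPM (log2 5.52 ± 0.39). Hoxb5 had 20.2 and 9.53 CPM, against 0 and 0.347 CPM (log2 6.11 ± 0.76). These 5 genes were stable calls, each with its lowest ileal value far above the jejunal ones. Hoxb3 had 12.2 and 8.95 CPM in ileum, against 1.01 and 1.13 CPM in jejunum (log2 3.28 ± 0.38). Hoxb4 had 6.82 and 2.79 CPM, against 0.76 and 1.13 CPM (log2 2.31 ± 0.56, adjusted p = 0.0308).

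Hoxb2 ran the other way, at 0.384 and 0.233 CPM in ileum and 1.14 and 2.34 CPM in jejunum, but missed the threshold (log2 -2.46 ± 0.70, adjusted p = 0.051). Outside the cluster Hoxa3 (log2 2.04 ± 0.39) and Hoxd4 were called higher. Hoxd4 was at 2.4 and 2.33 CPM in ileum and had no count in jejunum, which makes it at least 7.38-fold higher against a floor of 3 counts per library. In total 9 of the 10 tested Hox genes were called higher, against 6.58% of all tested genes. The other 29 of 39 listed Hox genes were below the filter, and 14 of them had no count in any of the 4 libraries. A gene high in a single region can pass the filter through that region, so the 9 of 10 is a description. Hoxa9, below the filter, had 0 counts in both ileal libraries and 1.01 and 1.13 CPM in jejunum. Neighbouring Hox genes overlap antisense transcripts, and whether counting used the strand is not given, so their reads may be shared.

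**Figure D3:**
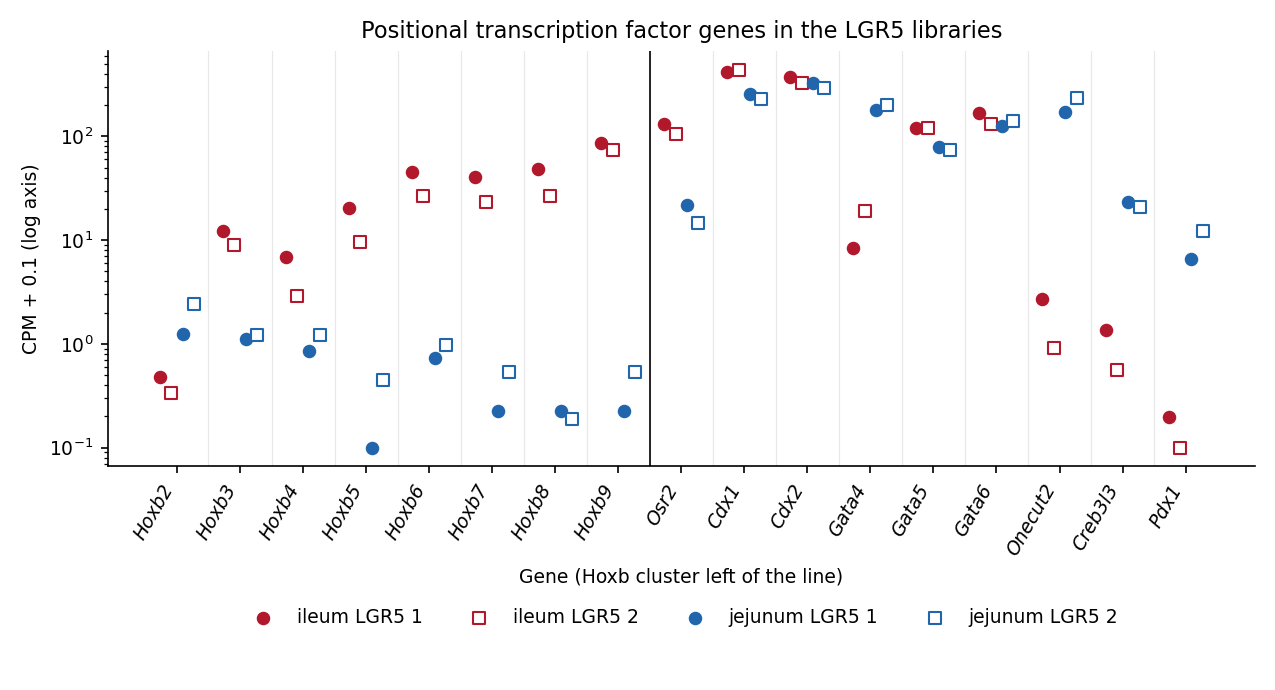
CPM plus 0.1 (log axis) of 17 transcription factor genes in the 4 LGR5 libraries, with ileum in red and jejunum in blue. From Hoxb5 to Hoxb9 ileal points lie between 9.53 and 86.6 CPM and jejunal points below 1 CPM, while Onecut2, Creb3l3, Pdx1 and Gata4 have their jejunal points higher and Cdx2 and Gata6 overlap.

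Other positional transcription factors split by direction: of 24 tested, 5 were higher and 4 lower in ileum. That is a share of 37.5% called, against 12.2% of all tested genes. Onecut2 (ENSMUSG00000045991), a cut-homeobox factor, was at 2.59 and 0.814 CPM in ileum and 172 and 236 CPM in jejunum. It was 115-fold lower in ileum (log2 -6.84 ± 0.42, adjusted p = 0.000979), a stable call. Gata4 (ENSMUSG00000021944) was at 8.36 and 18.8 CPM in ileum and 179 and 199 CPM in jejunum (log2 -3.81 ± 0.40, adjusted p = 0.00879). Its call was lost when either jejunal library was left out. Pdx1, a factor of the duodenum and pancreas, was at 0.0961 and 0 CPM in ileum, against 6.46 and 12.2 CPM in jejunum (log2 -7.17 ± 0.76). Creb3l3, which regulates lipid genes, was at 1.25 and 0.465 CPM, against 23.2 and 20.8 CPM (log2 -4.62 ± 0.39). Both were stable calls and did not overlap between regions. Higher in ileum was Osr2, a zinc finger factor, at 132 and 104 CPM against 21.5 and 14.7 CPM (log2 2.72 ± 0.22), a stable call. Smaller differences were called for the winged helix factor Foxa1 (log2 1.29 ± 0.14), Cdx1 (0.83 ± 0.16) and Gata5 (0.66 ± 0.14). The general intestinal regulators Cdx2 (0.17 ± 0.16), Gata6 (0.16 ± 0.16) and Hnf4a (-0.03 ± 0.18) were not called. The GATA family thus held a member lower, a member higher and a member not called.

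Of the bile acid genes, Fabp6 (ENSMUSG00000020405), which binds bile acids inside ileal cells, was at 117 and 52.3 CPM in ileal and at 0.76 and 0.694 CPM in jejunal LGR5 cells. The difference was 115-fold (log2 6.85 ± 0.63, adjusted p = 0.00763). The lower ileal value was still far above both jejunal ones, but the call was lost when either jejunal library was left out. Other genes of the route differed less. The exporter gene Osta was higher in ileum (log2 0.83 ± 0.20), as was the bile acid receptor gene Nr1h4 (0.65 ± 0.17), at 34.7 and 42.3 CPM against 23.3 and 25.8 CPM. The partner of the exporter, Ostb, was at 4.8 and 4.77 CPM, against 2.15 and 1.65 CPM (1.34 ± 0.40, adjusted p = 0.0602). Nr0b2, a repressor induced by the bile acid receptor, was lower in ileum (-3.66 ± 0.69), at 0.192 and 0.116 CPM against 1.9 and 2.34 CPM, and so was the canalicular export pump gene Abcc2 (-0.96 ± 0.17). The uptake transporter gene Slc10a2 was below the filter, at 2.21 and 1.05 CPM in ileum and 0.886 and 0.434 CPM in jejunum. Fgf15, the ileal hormone that reports bile acids to the liver, had 0.288 and 1.16 CPM in ileum and no count in jejunum. Of the 7 tested genes 3 were higher and 2 lower, a share of 71.4% called against 12.2% of all tested genes. Their median log2 difference was 0.65, against -0.01 for all genes. Of 6 vitamin B12 genes 1 (16.7%) was lower, against 5.64% of all tested genes: Cd320, a receptor for the vitamin's carrier (-0.998 ± 0.23). Cubn and Amn, the ileal uptake receptor, were not called (0.21 ± 0.68 and -0.02 ± 0.21).

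Genes of dietary fat absorption were lower in ileum wherever they were called: 8 of 20 fell, against 5.64% of all genes, with a median log2 difference of -1.47. Fabp1 (ENSMUSG00000054422), a fatty acid binding protein, was at 9.8 and 11.5 CPM in ileum and 128 and 97.4 CPM in jejunum. It was 10.6-fold lower (log2 -3.40 ± 0.20, adjusted p = 6.1e-05). Mttp, which loads lipid onto apolipoprotein B, was at 48.4 and 52.3 CPM in ileum and 257 and 210 CPM in jejunum (log2 -2.21 ± 0.16). Groups did not overlap for either gene, and both were stable calls. So were Dgat1, an enzyme of triglyceride synthesis (-1.52 ± 0.15), Npc1l1, the cholesterol uptake transporter (-1.42 ± 0.15), and the apolipoprotein gene Apoc2 (-3.42 ± 0.41). Apoc3 (-3.47 ± 0.49), the monoacylglycerol acyltransferase gene Mogat2 (-1.52 ± 0.26) and the lipoprotein receptor gene Scarb1 (-1.65 ± 0.37) were the other called members. Apoa4, an apolipoprotein of chylomicrons, was at 10.3 and 3.84 CPM in ileum and 242 and 88.3 CPM in jejunum. Its difference of -4.52 ± 0.90 missed the threshold (adjusted p = 0.0902), with the libraries of each region over 2-fold apart. Apob (-0.40 ± 0.29), Acsl5 (0.00 ± 0.16) and Dgat2 (-0.24 ± 0.19) were not called either.

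Brush border and sugar genes were mostly lower in ileum, 11 of 20, with 1 higher and a median of -0.93. The share called was 60%, against 12.2% of all tested genes. Mme, a membrane metalloendopeptidase, was at 4.61 and 2.21 CPM in ileum and 75.5 and 67 CPM in jejunum (log2 -4.35 ± 0.29). Alpi, the intestinal alkaline phosphatase gene, was at 5.86 and 4.42 CPM, against 45.3 and 42.4 CPM (-3.08 ± 0.21). Akp3, another intestinal alkaline phosphatase gene, was at 0.384 and 0.116 CPM, against 10.1 and 8.25 CPM (-5.07 ± 0.53). These 3 and the fructokinase gene Khk (-1.50 ± 0.17) were stable calls without overlap. Lct (ENSMUSG00000026354), the lactase gene, was at 2.5 and 1.86 CPM in ileum and 56.7 and 21.8 CPM in jejunum (-4.14 ± 0.61, adjusted p = 0.0229). The trehalase gene Treh (-3.26 ± 0.46), the glucose transporter gene Slc2a2 (-2.71 ± 0.58), the aminopeptidase gene Anpep (-1.57 ± 0.25), the sucrase-isomaltase gene Sis (-1.03 ± 0.17) and Ace (-0.83 ± 0.20) were also lower. The exception was Mgam, the maltase-glucoamylase gene, at 1486 and 886 CPM in ileum and 356 and 412 CPM in jejunum (1.63 ± 0.26, adjusted p = 0.00852). The sodium glucose transporter gene Slc5a1 (-0.17 ± 0.23), the fructose transporter gene Slc2a5 (0.30 ± 0.28) and the peptide transporter gene Slc15a1 (-0.69 ± 0.38) were not called.

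The promoter windows of 4 of these genes are shown because they span both directions: a Hox gene and the bile acid gene, higher in ileum, and the lactase and fatty acid binding genes, lower in ileum. Each holds the 250 bases before the gene's start, from RefSeq on GRCm38.p6, printed 5′ to 3′ on the gene's strand. Capitals mark matches, on either strand, to the letters TTTATG or TTTATT, bound by CDX factors, and AGATAA or TGATAA, bound by GATA factors.
Hoxb8, chr11:96281655-96281904, plus strand: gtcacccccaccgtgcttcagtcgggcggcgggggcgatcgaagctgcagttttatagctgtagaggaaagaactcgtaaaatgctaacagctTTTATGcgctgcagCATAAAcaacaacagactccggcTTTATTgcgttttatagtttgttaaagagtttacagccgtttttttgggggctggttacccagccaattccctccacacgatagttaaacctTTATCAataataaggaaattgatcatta
Fabp6, chr11:43601563-43601812, minus strand: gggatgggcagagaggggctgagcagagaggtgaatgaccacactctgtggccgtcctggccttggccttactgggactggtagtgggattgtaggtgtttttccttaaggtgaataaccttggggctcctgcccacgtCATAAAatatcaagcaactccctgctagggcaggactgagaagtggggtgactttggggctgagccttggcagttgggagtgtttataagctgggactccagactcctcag
Lct, chr1:128328319-128328568, minus strand: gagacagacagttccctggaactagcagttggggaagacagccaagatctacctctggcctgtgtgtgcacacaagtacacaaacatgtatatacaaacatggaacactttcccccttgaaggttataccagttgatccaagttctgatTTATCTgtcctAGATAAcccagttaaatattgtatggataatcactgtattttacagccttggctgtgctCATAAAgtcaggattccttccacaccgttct
Fabp1, chr6:71199629-71199878, plus strand: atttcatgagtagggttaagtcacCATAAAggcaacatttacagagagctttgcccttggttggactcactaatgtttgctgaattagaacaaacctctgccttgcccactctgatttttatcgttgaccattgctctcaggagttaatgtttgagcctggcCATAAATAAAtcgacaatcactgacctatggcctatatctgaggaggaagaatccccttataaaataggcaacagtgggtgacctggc
Hoxb8 held 4 matches, Lct 3, Fabp1 3, of which a pair overlaps, and Fabp6 1. Such windows were at hand for 8969 of the 12882 tested genes (69.6%). The CDX letters occurred in 17.5% of windows of genes called higher, 20.1% of those called lower and 15.6% of all. The GATA letters occurred in 10.9%, 11.7% and 9.59%. CAAAGTCC, letters of HNF4 sites, occurred in 0.891% of windows of higher genes, 2.97% of those of lower genes and 1.32% of all. GTTAAT, letters of HNF1 sites, occurred in 4.46%, 6.32% and 3.96%, and TATAAA in 47 of 561, 56 of 538 and 578 of 8969 windows. Matches of different letters may overlap. A match is a string of letters, not a binding site, and no match says only that the letters are not in this window.

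Genes that handle foreign compounds were largely lower in ileum: 16 of 30 fell and 3 rose, with a median of -1.14. The share called was 63.3%, against 12.2% of all tested genes. Adh6a, an alcohol dehydrogenase, was at 6.82 and 7.79 CPM in ileum and 77.6 and 70.7 CPM in jejunum (log2 -3.34 ± 0.18, adjusted p = 4.58e-05), a stable call. Nr1i3, the receptor CAR that induces many of these enzymes, was at 3.75 and 5.23 CPM, against 21 and 33.3 CPM (-2.61 ± 0.31). The glutathione transferase Gsta1 (-3.34 ± 0.34) and the carboxylesterase Ces2e (-1.52 ± 0.18) were stable calls, as was Ces2g outside the list (-3.001 ± 0.18). Abcb1a (ENSMUSG00000040584), the efflux pump P-glycoprotein, ran the other way at 235 and 202 CPM in ileum and 44.7 and 41.9 CPM in jejunum. It was 5.05-fold higher (2.34 ± 0.16, adjusted p = 0.000111), a stable call. Gsta3 was also higher (3.20 ± 0.40), at 13.5 and 8.37 CPM against 1.14 and 1.22 CPM, and Gsta4 (0.87 ± 0.21). Cyp3a11, at 2.88 and 0.814 CPM against 45.3 and 13.9 CPM, was not called (-3.94 ± 0.96, adjusted p = 0.0987). Members of the Gst, Ces, Ugt and Cyp families have near-identical copies that may share reads, so these values are uncertain. The enzymes of retinol handling did not move together. Rbp2, which binds retinol in absorptive cells, was at 4.71 and 4.19 CPM in ileum and 128 and 69.3 CPM in jejunum (-4.46 ± 0.37). The retinol dehydrogenase gene Rdh7 was at 2.79 and 2.33 CPM, against 27.2 and 22.7 CPM (-3.27 ± 0.27), whereas its family members Rdh9, at 39.6 and 21.4 CPM against 1.65 and 1.48 CPM (4.29 ± 0.38), and Rdh1, at 24.6 and 17.6 CPM against 2.53 and 2.08 CPM (3.20 ± 0.31), were higher. These 3 dehydrogenase genes were stable calls, and Rdh1 and Rdh9 were chosen after their values were seen. Of the 8 tested retinoid genes 2 (25%) were lower, against 5.64% of all tested genes.

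Among 21 transport genes 2 were higher and 8 lower, a share of 47.6% called against 12.2% of all tested genes. Slc5a8, a transporter of short-chain fatty acids, was at 39.9 and 19.5 CPM in ileum and 2.28 and 2.78 CPM in jejunum (log2 3.54 ± 0.40), and the iron oxidase gene Heph was higher by 0.79 ± 0.16. Lower were the amino acid transporter genes Slc3a1 (-1.80 ± 0.20), Slc7a9 (-1.12 ± 0.24), whose products form a carrier, and Slc7a8 (-1.21 ± 0.14), the anion exchanger genes Slc26a3 (-1.02 ± 0.18) and Slc26a6 (-1.94 ± 0.23), the calcium binding protein gene S100g (-1.997 ± 0.31), the proton exchanger gene Slc9a3 (-2.66 ± 0.52) and Slc6a19 (-1.13 ± 0.30). Of these transport genes Slc3a1 was a stable call. Guca2a, which encodes guanylin, a peptide that drives chloride and fluid secretion, was at 455 and 1071 CPM in ileum and 77.5 and 54.4 CPM in jejunum (3.53 ± 0.53, adjusted p = 0.0308). The guanylin receptor gene Gucy2c was not called (0.41 ± 0.15, adjusted p = 0.109).

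**Figure D4:**
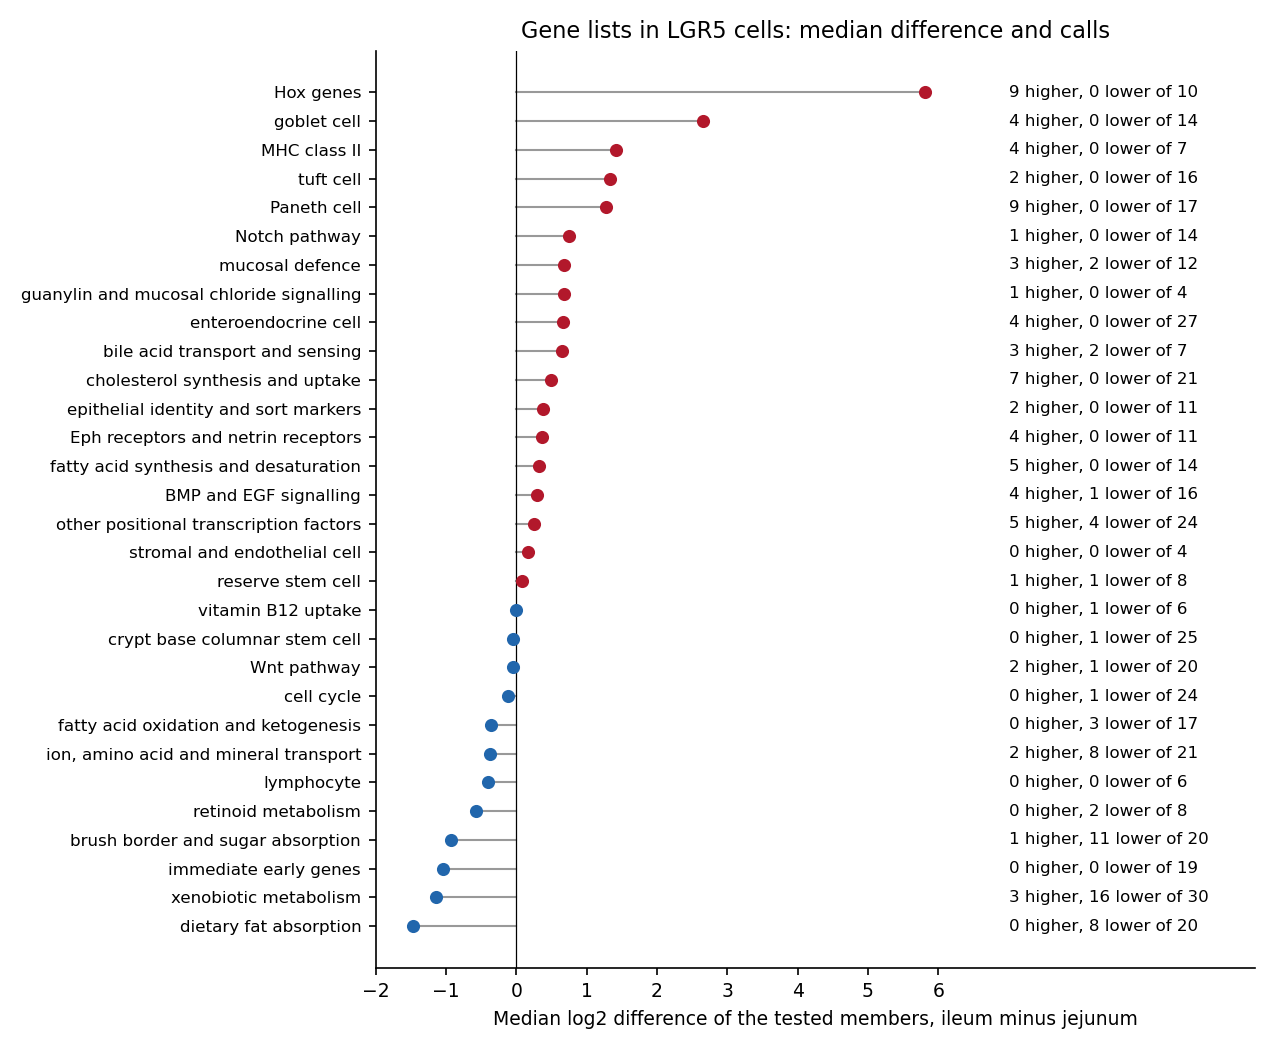
Median log2 difference, ileum minus jejunum, of the tested members of each list with at least 4 tested genes, with the number called higher and lower beside it. Hox genes have a median of 5.82, which is 0.47 without the filter on low counts and 3.05 without ileum LGR5 1. Dietary fat absorption has a median of -1.47, and crypt base columnar (-0.04) and cell cycle genes (-0.12) lie near the median of all genes.

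Of 17 tested Paneth cell markers 9 were higher in ileum, against 6.58% of all tested genes, and none of the other 8 was called lower, with a median of 1.28. Defa22 (ENSMUSG00000074443) was at 543 and 395 CPM in ileum and 18.6 and 23.4 CPM in jejunum (log2 4.47 ± 0.23, adjusted p = 4.58e-05). Defa21 was at 645 and 391 CPM, against 20.4 and 34.4 CPM (4.23 ± 0.39), and the defensin-like gene Gm15308 at 203 and 179 CPM, against 1.9 and 3.91 CPM (5.97 ± 0.28). These were stable calls, and Defa20 (4.61 ± 0.56, adjusted p = 0.0219) was called as well. Defa24 stood at 2706 and 2962 CPM in ileum and 2394 and 4079 CPM in jejunum, and was not called (-0.19 ± 0.27). Defa17 (-0.24 ± 0.17), Defa26 (-0.37 ± 0.26) and Defa3 (0.02 ± 0.29) were not called either. Alpha-defensin copies are nearly identical, so reads may be split between them. The lysozyme gene Lyz1 was at 3783 and 3502 CPM in ileum and 1999 and 2655 CPM in jejunum (0.65 ± 0.23, adjusted p = 0.0982). Wnt3, a Wnt ligand that Paneth cells supply to stem cells, was at 36.7 and 45 CPM, against 5.57 and 4.51 CPM (3.03 ± 0.22), and Habp2, a serine protease, at 35.2 and 50.8 CPM, against 7.98 and 7.38 CPM (2.48 ± 0.23). Both were stable calls. Mmp7, the protease that activates defensins, was higher (2.37 ± 0.26), as were Itln1 (1.22 ± 0.22) and Pnliprp2 (1.51 ± 0.20). The markers summed to 11183 and 12702 CPM in ileum and 6012 and 8485 CPM in jejunum, and the part of that in the single genes was not tested.

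Goblet cell genes had a median difference of 2.66, and edgeR called 4 of 14 (28.6%) higher, against 6.58% of all tested genes. DESeq2 called 12 higher, limma-voom 13 and edgeR without robust estimation 13. Muc2 (ENSMUSG00000025515), the main intestinal mucin, was at 1449 and 1948 CPM in ileum and 245 and 169 CPM in jejunum (log2 3.03 ± 0.26, adjusted p = 0.000369), a stable call. Creb3l1, a factor of secretory cells, was at 196 and 369 CPM, against 38.6 and 26.1 CPM (3.13 ± 0.40), and Galnt12 (1.58 ± 0.25) and Foxa3 (1.19 ± 0.21) were also called. The other 10 did not pass in the robust edgeR fit: Clca3 was at 687 and 4305 CPM in ileum and 124 and 38.5 CPM in jejunum (4.95 ± 1.54, adjusted p = 0.194). Agr2, needed for mucin folding, was at 1087 and 3357 CPM, against 402 and 282 CPM (2.70 ± 0.66, adjusted p = 0.0913), and the secretory lineage factor Atoh1 at 75.2 and 191 CPM, against 15.4 and 12.5 CPM (3.26 ± 0.59, adjusted p = 0.0578). The groups did not overlap for these genes, and ileum LGR5 2 was the highest library for each of them. Without ileum LGR5 2 the median was 1.63, and without ileum LGR5 1 it was 3.20. The calls of Creb3l1, Galnt12 and Foxa3 were lost when either jejunal library was left out.

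Of 27 enteroendocrine genes 4 (14.8%) were higher, against 6.58% of all tested genes, and none of the other 23 was called. These were Reg4 (log2 2.36 ± 0.31), the prohormone convertase gene Pcsk1 (1.83 ± 0.17), the secretin gene Sct (2.53 ± 0.35) and Pyy, the peptide YY hormone gene of distal gut, at 3.36 and 14 CPM in ileum and 0 and 0.174 CPM in jejunum (6.23 ± 1.18). Gcg, which encodes GLP-1, was at 80.8 and 202 CPM, against 13.5 and 16.6 CPM (3.22 ± 0.58, adjusted p = 0.0556). Nts, the neurotensin gene, was at 12.7 and 43.5 CPM, against 1.27 and 0.26 CPM (5.32 ± 1.09, adjusted p = 0.0706). Gip, a hormone gene of the proximal gut, was at 6.05 and 46.3 CPM, against 53.6 and 73.7 CPM (-1.30 ± 1.17). Chga (0.45 ± 0.50) and Chgb (0.03 ± 0.37), markers of the whole class, and Neurog3 (0.14 ± 0.50), its lineage factor, were not called. Pcsk1 was a stable call. The list's median of 0.66 was 1.02 without ileum LGR5 1 and turned to -0.04 without ileum LGR5 2. The calls of Reg4, Sct and Pyy were lost when either jejunal library was left out. Tuft cell genes had 2 of 16 (12.5%) higher, against 6.58% of all tested genes: the factor gene Pou2f3 (1.51 ± 0.35) and Ptgs1 (1.66 ± 0.37). Their median was 1.33, against 1.95 without ileum LGR5 1 and 0.09 without ileum LGR5 2. Both calls were lost when either jejunal library was left out. Dclk1 was at 62.2 and 222 CPM in ileum and 46.2 and 36.9 CPM in jejunum, and ileum LGR5 2 lay well above the other 3 libraries.

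Of 25 crypt base columnar markers 1 (4%) was called, against 12.2% of all tested genes: the cholesterol esterifying enzyme gene Soat1 (log2 -0.75 ± 0.19), and the median was -0.04. Lgr5 differed by 0.25 ± 0.53 (adjusted p = 0.815), with its ileal values on either side of the jejunal ones. Olfm4 was at 16268 and 7194 CPM in ileum and 17591 and 14143 CPM in jejunum (-0.44 ± 0.39). Ascl2, the Wnt-responsive stem cell factor, was at 116 and 57.4 CPM, against 87.4 and 73.6 CPM (0.11 ± 0.36). For each of these 3 genes ileum LGR5 2 was the lowest of the 4 libraries. The fits without 1 ileal library take the spread from the jejunal pair alone. Without ileum LGR5 1, Lgr5 and Ascl2 were lower in ileum, by -0.61 and -0.47, and the median of the 25 markers was -0.53. Without ileum LGR5 2 both genes were higher, by 0.79 and 0.53, and the median was 0.23. Of 11 epithelial and sort markers 18.2% were higher, against 6.58% of all tested genes: the keratin genes Krt8 (0.99 ± 0.22) and Krt18 (1.18 ± 0.20). Cd44 (-0.03 ± 0.32), Cd24a (0.70 ± 0.22, adjusted p = 0.0735) and the CD166 gene Alcam (0.14 ± 0.15) did not pass the test. Of 8 reserve stem cell genes 25% were called, against the same 12.2%: Prox1 was higher (3.49 ± 0.54) and the telomerase gene Tert lower (-0.97 ± 0.26). Of 24 cell cycle genes 4.17% were called, against 12.2% of all tested genes. Bub1 was lower (-0.57 ± 0.15), and Mki67 (-0.06 ± 0.18), Top2a (-0.10 ± 0.17) and Ccna2 (0.00 ± 0.16) were not called. Immediate early genes, which respond within minutes to handling or signals, had a median of -1.04, which ran from -0.25 without jejunum LGR5 2 to -1.69 without ileum LGR5 1. None of the 19 was called by the robust edgeR fit (0, and 4 with p under 0.05 before adjustment). Lower were 2 by edgeR without robust estimation, 2 without the filter on low counts, 3 by DESeq2 and 2 by limma-voom. Over all genes these settings tested, 697, 1131, 692 and 648 were lower. Replicate blocks, described below, gave 0 by number and 11 with crossed numbers (503 and 1014 over all genes). Their sum was 2450 and 1406 CPM in ileum, against 2371 and 4833 CPM in jejunum, highest in jejunum LGR5 2.

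Among genes of the signals that act on stem cells, 2 of 20 in the Wnt pathway were higher and 1 lower, a share of 15% that is near the 12.2% of all tested genes. The list's median of -0.05 was -0.40 without ileum LGR5 1 and 0.13 without ileum LGR5 2. All 3 calls were lost when either jejunal library was left out. Apcdd1, a membrane inhibitor of Wnt signalling, was at 19.8 and 12.8 CPM in ileum and 3.55 and 2.95 CPM in jejunum (log2 2.33 ± 0.32), Ccnd1, the cyclin D1 gene, was higher by 1.12 ± 0.16, and Myc was lower (-0.84 ± 0.16). The Wnt inhibitor gene Sfrp5 was at 35.3 and 16 CPM, against 101 and 85.1 CPM, and narrowly missed the threshold (-1.85 ± 0.39, adjusted p = 0.0529). Axin2, a general Wnt target, was not called (-0.04 ± 0.23). In the robust edgeR fit 1 of 14 Notch pathway genes (7.14%) was higher, near the 6.58% of all tested genes: Lfng, which modifies Notch receptors (1.23 ± 0.19). The Notch list had a median of 0.74, and 8 had p under 0.05 before adjustment, against 3686 of all 12882 genes. DESeq2 called 4 Notch genes higher (1043 of all tested genes), limma-voom 3 (751 of all) and edgeR without robust estimation 3 (897 of all). Of 16 genes of BMP and EGF signalling 31.2% were called, against 12.2% of all tested genes. Bmp7 (0.95 ± 0.16), Smad5 (0.61 ± 0.16) and the EGF receptor ligands Ereg (2.65 ± 0.52) and Egf (2.58 ± 0.63) were higher. The receptor gene Egfr was lower (-0.74 ± 0.15). Of 11 Eph and netrin receptor genes 4 (36.4%) were higher, against 6.58% of all tested genes. Unc5b (ENSMUSG00000020099), a netrin receptor, was at 34 and 28.9 CPM in ileum and 4.05 and 4.25 CPM in jejunum (2.92 ± 0.23, adjusted p = 0.000199), a stable call. Unc5a (1.72 ± 0.32), Epha4 (1.04 ± 0.24) and the ligand gene Efnb1 (0.56 ± 0.14) were the others.

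Lipid synthesis genes were higher in ileum where they were called. Of 21 cholesterol genes 7 (33.3%) were higher, against 6.58% of all tested genes, with a median of 0.50. Among them were the regulator gene Srebf2 (log2 0.64 ± 0.15), Stard4 (0.96 ± 0.15) and Cyp51 (0.74 ± 0.17). Of 14 genes of fatty acid synthesis 5 (35.7%) were higher, against the same 6.58%. The desaturase gene Scd2 was at 505 and 276 CPM, against 45.6 and 47.4 CPM (3.07 ± 0.31), and the acyltransferase gene Mboat1 at 31.2 and 40.1 CPM, against 2.66 and 1.91 CPM (3.98 ± 0.27), a stable call. Acly (1.24 ± 0.15), Acaca (0.78 ± 0.15) and Elovl5 (0.69 ± 0.15) were the others. Of 17 genes of fatty acid oxidation 3 (17.6%) were lower, against 5.64% of all tested genes: Pdk4 (-3.32 ± 0.36), Angptl4 (-2.90 ± 0.32) and Acadvl (-0.72 ± 0.16).

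Of 7 tested MHC class II genes, which present antigen, 4 (57.1%) were higher, against 6.58% of all tested genes, with a median of 1.42. Cd74 was at 1614.5 and 864 CPM in ileum and 527 and 526 CPM in jejunum (log2 1.23 ± 0.29), and H2-Ab1 at 433 and 250 CPM, against 124 and 124 CPM (1.47 ± 0.26). Both genes were higher in ileum LGR5 1 than in ileum LGR5 2. Lymphocyte markers were highest in ileum LGR5 2 and jejunum LGR5 1, and the number called among the 6 tested was 0 by edgeR (0 also before adjustment), 1 by DESeq2 and 0 by limma-voom. Of 3 tested myeloid markers 1 (33.3%) was higher, Itgam (1.96 ± 0.24), against 6.58% of all tested genes. The other 9 of the 12 listed myeloid markers were below the filter. Of 12 defence genes 3 were higher: Duox2, which makes hydrogen peroxide at the surface, at 181 and 149 CPM against 34.4 and 41.9 CPM (2.11 ± 0.17), its maturation factor gene Duoxa2 (2.66 ± 0.42), and Cd177, at 235 and 173 CPM against 28.2 and 26.1 CPM (2.91 ± 0.19). Reg1 was lower, at 4.04 and 2.21 CPM in ileum and 91.9 and 64 CPM in jejunum (-4.61 ± 0.31), with reads possibly shared within the Reg family, and Nod2, a sensor of bacterial peptides, was lower (-1.12 ± 0.31). Of the 12 defence genes 41.7% were called, against 12.2% of all tested genes. Duox2, Cd177 and Reg1 were stable calls.

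Several of the largest stable differences lay outside the lists. Arg2, the mitochondrial arginase, was at 4.04 and 3.49 CPM in ileum and 87.7 and 86.3 CPM in jejunum (log2 -4.52 ± 0.19, adjusted p = 1.0e-05). Prap1, a secreted acidic protein of proline-rich sequence, was at 48.9 and 34.4 CPM, against 428 and 349 CPM (-3.22 ± 0.21). Gkn3, a gastrokine, was at 7.88 and 2.21 CPM, against 152 and 128 CPM (-4.75 ± 0.56, adjusted p = 0.02), and was not stable. The next genes were named after their values were seen, from the 107 stable calls. Bex4 was at 37.9 and 18.5 CPM in ileum and had no count in jejunum, at least 88.1-fold higher against a floor of 3 counts per library. Adcy8, an adenylate cyclase, was at 64.1 and 44.1 CPM, against 0.253 and 0.868 CPM (6.44 ± 0.40). St6gal1, a sialyltransferase, was at 40.3 and 52.7 CPM, against 0.76 and 1.13 CPM (5.56 ± 0.29). In none of these did the regions overlap. The fatty acid receptor gene O3far1 (3.91 ± 0.29), the transcription factor gene Klf12 (5.05 ± 0.37), the claudin gene Cldn4 (1.94 ± 0.21) and Ihh, a hedgehog ligand (1.501 ± 0.16), were higher. The secreted glycoprotein gene Fstl1 was lower, at 0.576 and 1.51 CPM against 42.9 and 41.2 CPM (-5.36 ± 0.34), as were the thiamine transporter gene Slc19a2 (-2.02 ± 0.16), the glutamate transporter gene Slc1a3 (-2.92 ± 0.24) and the pepsinogen gene Pgc (-4.82 ± 0.34). Of the tested genes 6 had no count in either jejunal library and 3 none in either ileal library. Such genes pass the filter on counts through the region where they are high, so their calls follow from that choice.

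The LGR5 differences were set beside those of CD166 cells from a fit of all 14 libraries and those of crypt cells from a fit of 13, without the library labelled ileum crypt 3. In the fit of 14 the spread is shared with the other populations, and 103 genes (0.698%) were called between regions in LGR5 cells. CD166 cells had 3 calls (0.0203%). A stable call held when a library was left out, but not in every setting. Of the stable calls Hoxb8, Hoxb9 and Dgat1 were also called in LGR5 cells in this fit of 14. Fabp1 (edgeR, adjusted p = 0.304), Mttp (0.12), Khk (0.186) and Onecut2 (0.0747) were not. In the fit of 13 libraries crypt cells had 614 (4.17%), of which 236 (1.6%) were higher and 378 (2.56%) lower in ileum. Its spread is another one, so its counts and SEs are not comparable with those of the fit of 14. Hoxb9 differed by 7.99 ± 1.49 in LGR5, 5.75 ± 1.26 in CD166 and 6.87 ± 0.50 in crypt cells. Fabp6 differed by 6.86 ± 2.12, 9.27 ± 2.25 and 7.97 ± 1.18, and Onecut2 by -6.85 ± 1.63, -6.18 ± 1.57 and -5.55 ± 0.79. In the fit of 14 the crypt values were 6.29 ± 1.27 for Hoxb9, 7.40 ± 1.62 for Fabp6 and -2.195 ± 1.04 for Onecut2. The direct test of a larger or smaller difference in LGR5 than in CD166 cells called 0 of 14750 genes in edgeR (943 had p under 0.05 before adjustment). DESeq2 gave 34 and limma-voom 0. The spread in this fit of 14 includes ileum crypt 3, and this test was not run without that library. With the LGR5 and CD166 libraries fitted alone, edgeR called 22 of 13814 genes. The 0 calls thus do not show that the populations are alike. Against crypt cells, with all 6 crypt libraries, edgeR called 2 genes (0.0136%), Unc5b and C530008M17Rik. Fitted on their own 4 libraries as the LGR5 cells were, CD166 cells gave 571 calls (4.14%), 239 higher and 332 lower in ileum. Of these 331 were called in the same direction in LGR5 cells, which is 21.0% of the LGR5 calls and 58.0% of the CD166 calls, and 2 in the opposite direction. Some Paneth genes differed by unlike amounts without passing the direct test: Wnt3 by 3.02 ± 0.90 in LGR5, 0.51 ± 0.82 in CD166 and 2.43 ± 0.76 in crypt cells, and Habp2 by 2.48 ± 0.71, -0.37 ± 0.65 and 2.29 ± 0.55. Rdh9 differed by 4.29 ± 0.55 in LGR5 and 4.40 ± 0.54 in CD166 cells but by 0.01 ± 0.40 in crypt cells (adjusted p = 0.0931 for LGR5 against crypt, all libraries), and Fstl1 by -5.35 ± 0.65, -3.99 ± 0.60 and -0.68 ± 0.53. In the fit of 14 the crypt values were 2.11 ± 0.72 for Wnt3, 1.95 ± 0.56 for Habp2, -0.20 ± 0.37 for Rdh9 and -0.43 ± 0.46 for Fstl1.

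**Figure D5:**
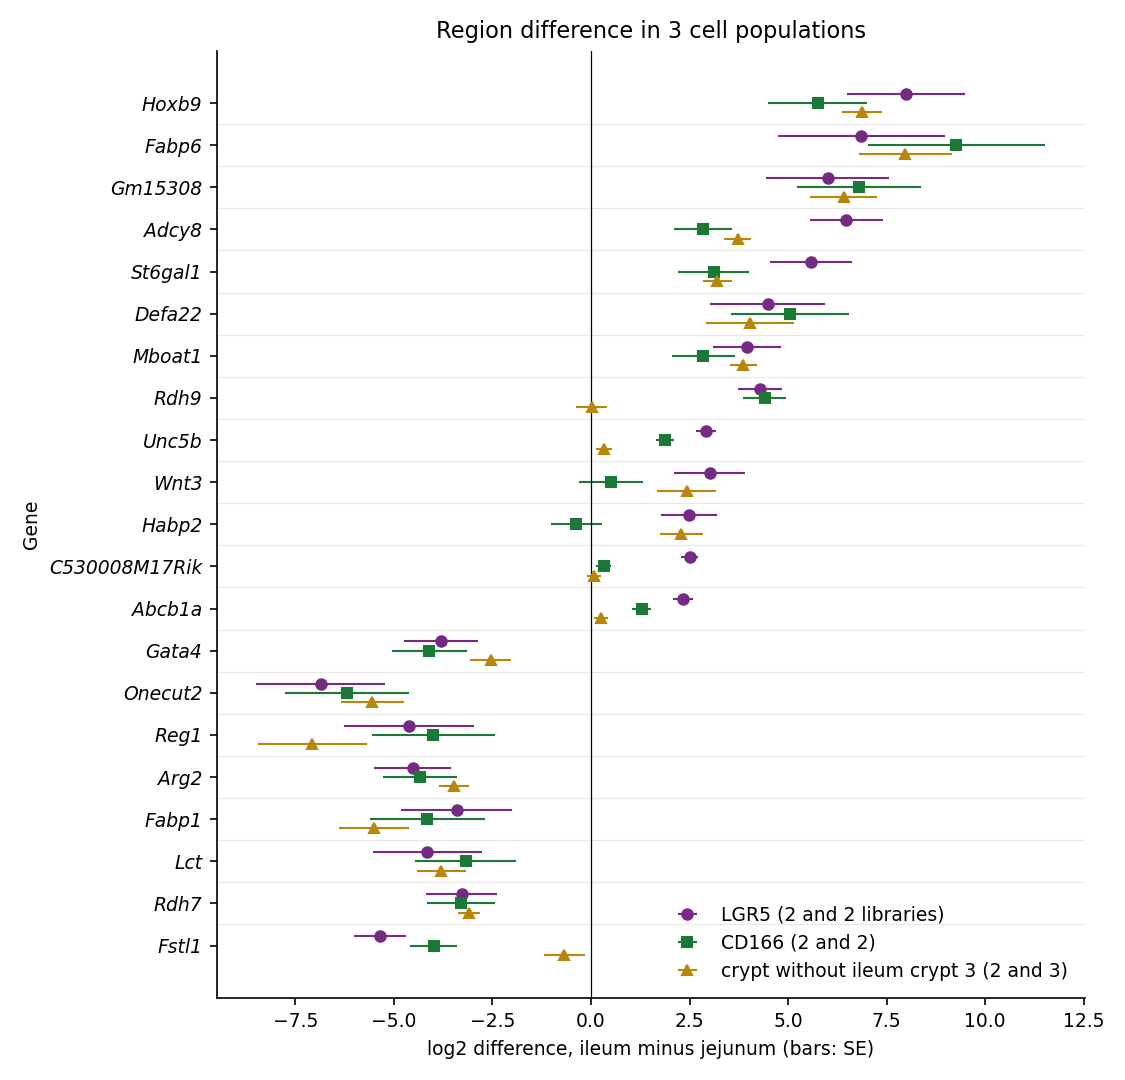
log2 difference, ileum minus jejunum, of 21 genes in LGR5 cells (circles), CD166 cells (squares) and crypt cells without the library labelled ileum crypt 3 (triangles, from a separate fit of 13 libraries), with bars for the SE. Hoxb9, Fabp6 and Onecut2 lie on the same side of 0 in all 3 populations, while C530008M17Rik lies at 2.50 in LGR5 cells and at 0.32 and 0.08 in CD166 and crypt cells.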

How the data were processed

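Total RNA was sequenced from 14 libraries as single-end reads of 50 bases after Illumina TruSeq preparation, per the labels' protocols. Per the submitters' processing notes, mm9 was the genome and DESeq a tool, with no version or step. The aligner, counting program, annotation and use of strand were not given in the sources used here. The authors deposited expected counts for 36401 genes per library without scaling, in files named for RPKM: 50.6% of values above 0 are whole within 0.001. They also deposited log2 values centred per gene, used only as an alternative. Coordinates are given for RefSeq promoter windows alone (GRCm38.p6), since no mm9 annotation was at hand.

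Rounded expected counts of the 4 LGR5 libraries were passed through filterByExpr with a minimum count of 10 and a minimum total of 15, leaving 12882 genes. In edgeR 4.0.16 under R 4.3.3 these libraries were fitted alone with TMM factors (0.983 to 1.03), 2 group means and robust quasi-likelihood dispersion. Benjamini-Hochberg adjustment ran over all tested genes, and genes were called at an adjusted p under 0.05. All adjusted p-values in the text come from these edgeR fits unless another tool is named. The SE is the log2 difference divided by the square root of F. A fitted difference against a region with no counts depends on the prior count. Differences between populations were tested as interactions in 1 fit of 14 libraries. Simulated data holding known changes, drawn with dispersions fitted to these data, were run through the LGR5 fit and the test against CD166 cells. The test against crypt cells was not run on them, and the outcome is not given here. Totals of 7904393 to 11206020 counts leave genes near 1 CPM with few counts, where counting error is large.

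The 33 gene lists, the members and the naming rule were chosen with earlier results of these data known. The rule named the 15 called genes with the largest difference in each direction at a mean log2 CPM of at least 3, up to 5 called members per list, 22 fixed genes and up to 6 genes per direction of each interaction; other genes were named after their values were seen, and some genes the rule picked are not reported here. Hmgcs1, Mptx1, Mptx2 and Siglecf were not analysed here. Alternatives were size factors by RLE, other filters, no robust estimation, DESeq2 1.42.0, limma-voom (limma 3.58.1), limma on the deposited log2 values, wider fits, a block for the replicate number and fits without each library. The added ones were chosen after seeing the data.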

Additional observations from a re-analysis of the deposited data

Results flagged for a closer look

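The test of whether the difference between ileum and jejunum in LGR5 cells differs from that in crypt cells passed for 2 genes, both larger in LGR5 cells. Unc5b, a netrin receptor, stood at 34 and 28.9 CPM in ileal and 4.05 and 4.25 CPM in jejunal LGR5 cells, while crypt libraries held 27.4 to 37.6 CPM in ileum and 24.2 to 27.1 CPM in jejunum. Its difference was 2.67 ± 0.30 larger on the log2 scale in LGR5 cells (edgeR, adjusted p = 0.0127). In CD166 cells it was at 23.3 and 20 CPM in ileum and 6.58 and 5.14 CPM in jejunum (log2 1.89 ± 0.23). C530008M17Rik, a gene with no role given in the files, stood at 25.4 and 40 CPM in ileal and 5.32 and 6.08 CPM in jejunal LGR5 cells, with crypt libraries at 78.4 to 87.6 CPM in ileum and 76.1 to 82.5 CPM in jejunum. Its difference was 2.46 ± 0.26 larger in LGR5 cells (adjusted p = 0.0127), and CD166 cells held 29.6 and 33.9 CPM in ileum and 26.8 and 24.3 CPM in jejunum. For both genes the jejunal LGR5 libraries were the lowest of the series. Both calls held without ileum crypt 3 (adjusted p = 0.0272 for each) and were lost without jejunum LGR5 1 (0.22), without jejunum LGR5 2 (0.203) and without ileum crypt 2 (0.0612), as well as by limma-voom, in a fit of the 2 populations alone and with a replicate block. The difference itself stayed at 2.52 to 2.84 for Unc5b and 2.13 to 2.73 for C530008M17Rik over all alternatives. The adjusted p ranged from 1.99e-12 to 0.392.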

How the results depend on the processing

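The 1574 genes called between ileal and jejunal LGR5 cells had the same direction in every alternative that tested them. Each alternative reuses the libraries that gave the calls, so this shared direction is not independent support. The count was 2712 without a filter on low counts, 103 in the fit of all 14 libraries and 484 with limma on the deposited log2 values. Without 1 library it ran from 126 to 3359. Other settings stayed within 1.5 times: RLE factors (1610), a filter of 1 CPM in 2 libraries (1595), DESeq2 (1735), limma-voom (1399), no robust estimation (1594) and the 8 sorted libraries (1223). Same-numbered libraries deviated in opposite directions (correlation -0.248), and the labels do not say that a number pairs libraries. With a replicate block by number there were 1146 calls, and with crossed numbers, added after seeing the data, 2275. Among single genes a value was counted as reversed if its sign changed and either fit called the gene. By this rule 2 reversed, both without ileum LGR5 1: Lgr5 to -0.61 and Ascl2 to -0.47 (0.79 and 0.53 without ileum LGR5 2). Other changes of sign, such as Ascl2 at -0.02 without jejunum LGR5 2, were counted as kept. Over all alternatives 439 gene values lost the call, 152 gained it and 2781 kept it or its absence. Most losses came from the 14-library fit (146) and from leaving out jejunum LGR5 1 (89) or jejunum LGR5 2 (93).

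For LGR5 against CD166 cells, 0 genes became 2 without a filter, 34 by DESeq2 and 22 in the fit of the 2 populations alone, and 0 to 3 without 1 library; the block gave 0. For LGR5 against crypt cells, 2 became 5 without a filter, 59 by DESeq2 and 0 by limma-voom, in the fit of the 2 populations alone and with the replicate block, and 0 to 20 without 1 library. The cause of these changes was not tested. With 2 libraries a region, genes under 1 CPM rest on few counts.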
